A study of Homo sapiens with 6 samples.

Results

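The genes described here encode the SR proteins and the heterogeneous nuclear ribonucleoproteins (hnRNPs), 2 families of RNA-binding proteins that set which exons are kept in a messenger RNA. The members are the protein-coding genes whose symbol is SRSF followed by digits or starts with HNRNP, a rule on names that uses no measured value but was set with earlier results of these data known, and they number 39 of the 58735 genes of the deposited count table, 12 SR and 27 hnRNP genes. The 6 RNA-Seq libraries come from MCF10A, a human breast epithelial line that is not malignant. In 3 of them (siControl, genotype given as WT) the cells had received a pool of siRNAs without a target, in the other 3 (siDAB2IP) siRNA against DAB2IP, and RNA was taken at 48 hours. DAB2IP is a tumor suppressor that restrains Ras and NF-κB signaling. The comparison addresses whether RNA of splicing factor genes, among them SRSF1, HNRNPA2B1 and HNRNPU, which the study puts forward as candidate NF-κB targets in luminal breast tumors and cell lines, differed after loss of DAB2IP in this non-malignant line. In T47D, a luminal A breast cancer line, the study reports higher RNA of SRSF1, HNRNPA2B1 and HNRNPU after DAB2IP knockdown. The labels do not say whether the 3 libraries of a group came from separate cultures, so the tests measure the spread between these libraries, which may be technical.

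SR proteins carry RNA recognition motifs and a tail rich in arginine and serine. They bind exonic enhancers, recruit the U1 and U2 small nuclear ribonucleoproteins to the splice sites, and are moved into the nucleus and switched by phosphorylation. The hnRNPs coat nascent transcripts, and several of them silence exons that SR proteins would include, so that the balance of both families helps to set the isoforms of a cell. Many genes of both families also regulate themselves by splicing their own RNA into forms that are degraded by nonsense-mediated decay.

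The promoters of several members shared a stretch of letters that the choice by name did not use. RefSeq start regions, from 250 bases before to 50 bases from the start, were matched by symbol for 35 of the 39 members, of which 30 had enough counts to be tested, and HNRNPA1, HNRNPA1P48, HNRNPCL3 and SRSF2 were not matched. The motif GCCATTT, searched on both strands, was found in the start regions of 9 of these 30 members (30%) and of 645 of the 10600 tested genes with a start region (6.08%). Restricted to 10 bases before to 30 bases after a start, it was found in 8 members (26.7%) and in 210 tested genes (1.98%). The motif was picked after the sequences had been read and genes with several RefSeq starts had several chances to match, so no test was made. Its reverse complement AAATGGC was counted as the same motif. CCAT is the core of the letters that the transcription factor YY1 binds. A match is a description of the sequence and not a bound site. The windows below run from 40 bases before the RefSeq start to base 30 from it, each in the direction of transcription, on build GRCh38.p14. The first 8 are the tested members with the motif near a start, with the motif in capitals, and for HNRNPH1 1 of its several RefSeq starts is shown. The last 2, HNRNPU and HNRNPA2B1, hold no match and are shown because the counts of these genes are described below.
SRSF1: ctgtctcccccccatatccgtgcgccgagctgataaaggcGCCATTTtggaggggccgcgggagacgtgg
SRSF3: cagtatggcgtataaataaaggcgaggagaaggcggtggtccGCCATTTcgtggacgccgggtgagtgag
HNRNPC: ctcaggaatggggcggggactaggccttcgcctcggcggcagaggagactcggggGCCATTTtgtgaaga
HNRNPD: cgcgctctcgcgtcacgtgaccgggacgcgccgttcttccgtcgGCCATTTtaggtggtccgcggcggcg
HNRNPH1: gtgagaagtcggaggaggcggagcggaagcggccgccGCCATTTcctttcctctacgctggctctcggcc
HNRNPM: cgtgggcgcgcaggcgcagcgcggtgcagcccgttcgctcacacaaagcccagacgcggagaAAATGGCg
HNRNPR: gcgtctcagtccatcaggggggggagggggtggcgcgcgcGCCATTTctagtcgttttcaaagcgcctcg
HNRNPUL1: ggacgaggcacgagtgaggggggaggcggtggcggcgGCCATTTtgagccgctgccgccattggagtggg
HNRNPU: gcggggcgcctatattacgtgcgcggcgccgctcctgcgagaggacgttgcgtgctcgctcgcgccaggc
HNRNPA2B1: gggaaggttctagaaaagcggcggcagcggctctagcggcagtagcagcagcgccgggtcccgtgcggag

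On the forward strand lay the windows of SRSF3 (chr6:36594322-36594391), HNRNPM (chr19:8444935-8445004) and HNRNPUL1 (chr19:41264332-41264401). On the reverse strand lay those of SRSF1 (chr17:58007217-58007286), HNRNPC (chr14:21269413-21269482), HNRNPD (chr4:82373962-82374031) and HNRNPH1 (chr5:179623372-179623441). The windows of HNRNPR (chr1:23344255-23344324), HNRNPU (chr1:244864514-244864583) and HNRNPA2B1 (chr7:26200717-26200786) were also on the reverse strand. Counted with 0 as the first transcribed base, the motif began at 0 in SRSF1 and HNRNPR, at 2 in SRSF3, at 4 in HNRNPD and at -3 in HNRNPUL1 and HNRNPH1. HNRNPM held it at 22 on the opposite strand, and HNRNPH3 held it outside the shown range, at -96. The NF-κB consensus (κB), searched by its standard definition on both strands of the whole start region, was found in 8 of 30 members (26.7%) and in 17.3% of the tested genes. SRSF1, HNRNPU, HNRNPA2B1 and HNRNPC had no κB match in these start regions, which says nothing of sites elsewhere. The study's own motif scan lists HNRNPA2B1 with an NF-κB site. It drew its candidate targets from published ChIP-Seq signal of the NF-κB subunit RelA around gene starts. It also reports that an inhibitor of IKK, a kinase upstream of NF-κB, lowered RNA of SRSF1, HNRNPA2B1 and HNRNPU in T47D with DAB2IP knockdown. Its own ChIP-Seq in T47D with DAB2IP knockdown, compared with tumor RNA, did not bring out SRSF1. The study proposes that some such genes may already be bound in control cells.

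The targeted gene was measured first as a check of the labels. DAB2IP (chr9:121567057-121785530) had 103, 94.2 and 77.4 CPM (counts scaled to a common library total, TMM-normalized) in the siControl libraries and 27.5, 25.6 and 22.4 CPM in the siDAB2IP libraries. It fell by 1.86 on the log2 scale (standard error, SE, 0.13; adjusted p = 9.71e-05, edgeR's quasi-likelihood test). Library totals ran from 16353783 to 21916062 counts with siControl and from 16669134 to 18085367 with siDAB2IP. Of the 15430 genes tested, 1011 (6.55%) rose and 1181 (7.65%) fell at an adjusted p under 0.05. All 10 breast epithelial markers passed the count filter, and 4 of them fell, among them KRT5 and KRT14, basal keratins, with KRT5 at 3532 CPM with siControl and 1800 CPM with siDAB2IP, while ITGB4 had 1838 and 1996 CPM. Their summed level ran from 10411 to 12667 CPM with siControl and from 6787 to 8241 CPM with siDAB2IP. Of 10 markers of other cell types, 4 had enough counts to be tested, and these were COL1A1, PECAM1, VWF and PDGFRB. Of these COL1A1, a fibroblast collagen, rose from 15.3 to 26.3 CPM (adjusted p = 0.0129, edgeR; not called without siControl 1 or 2), PGR had 0 counts in all libraries, and the whole list summed to 25.6 to 29.8 CPM with siControl and 30.7 to 38.7 CPM with siDAB2IP. The part of these markers in the members' values was not tested.

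Of the 39 members, 33 had enough counts to be tested, 11 SR and 22 hnRNP genes. SRSF12 had 4 to 15 counts per library. HNRNPUL2-BSCL2, a read-through of adjacent genes, had 1 count in a single siControl library, and HNRNPCL1, HNRNPCL2, HNRNPCL3 and HNRNPCL4, intronless relatives of HNRNPC, had 0 counts in all 6 libraries. A library with 0 counts allows a level of up to 3 counts (0.137 to 0.183 CPM, depending on the library) by counting error alone.

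Levels between genes were compared as FPKM, which divides by gene length. In the siControl libraries HNRNPA1, an exon silencer that also shuttles RNA out of the nucleus, was the highest member at 168 ± 19.9 FPKM (SD, n = 3). HNRNPH1, which binds runs of guanines, followed at 136 ± 3.75 FPKM. HNRNPAB (111 ± 4.41 FPKM) and HNRNPK (108 ± 6.61 FPKM) differed by less than their spread, as did SRSF5 (93.9 ± 4.31 FPKM) and HNRNPA2B1 (93.7 ± 3.52 FPKM). SRSF1, the founding SR protein, was much lower at 14.0 ± 2.17 FPKM. The lowest tested members were HNRNPLL (3.61 FPKM), which regulates CD45 exons in lymphocytes, and HNRNPA1L2 (2.88 FPKM) and HNRNPA1P48 (1.65 FPKM), which are close copies of HNRNPA1 and may share its reads. The plot of siControl and siDAB2IP FPKM shows this order.

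**Figure D1:**
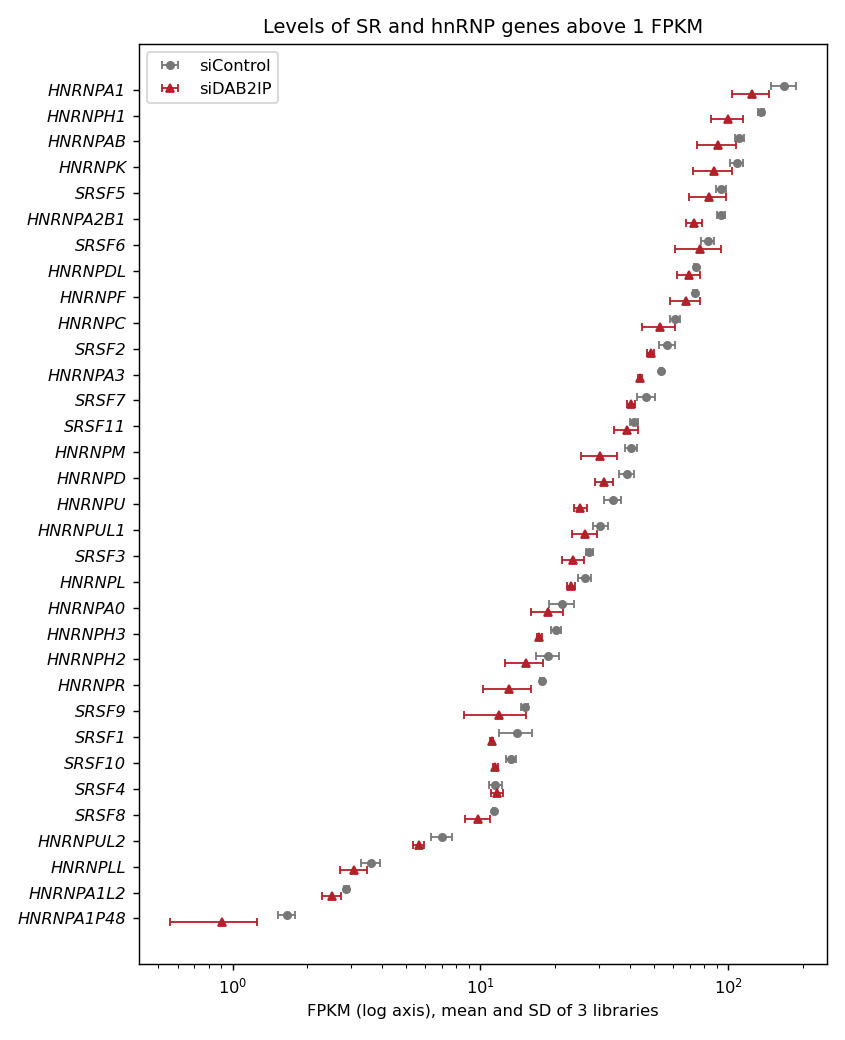
Levels of the SR and hnRNP genes above 1 FPKM on a log axis, with the mean and SD of the 3 libraries of each group. HNRNPA1 and HNRNPH1 had the highest siControl means and HNRNPA1P48 the lowest.

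HNRNPU, a scaffold protein that attaches chromatin to nuclear RNA and regulates U2 maturation, was the only member that passed the test, and it fell. No member rose, and no SR gene passed in either direction. The count of 1 of 33 members that fell (3.03%) is to be read against 7.65% of all genes tested that fell and 14.2% that changed in either direction. In the siControl libraries HNRNPU had 716, 781 and 840 CPM, and in the siDAB2IP libraries it had 580, 608 and 540 CPM. Every siDAB2IP library was below every siControl library. The log2 fold change was -0.43 (SE 0.11; 95% confidence interval, CI, -0.69 to -0.18; adjusted p = 0.031, edgeR's quasi-likelihood test), or -26.0%. The call was lost in edgeR without siControl 2 (adjusted p = 0.107), siControl 3 (adjusted p = 0.0902), siDAB2IP 1 (adjusted p = 0.0844) or siDAB2IP 2 (adjusted p = 0.053), and over these and the remaining omissions the log2 fold change stayed between -0.51 and -0.39. Counts of COX20, which overlaps HNRNPU, came to 0.552% of its counts, and its log2 fold change was -0.25 (adjusted p = 0.524, edgeR).

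Deviations of libraries with the same replicate number correlated weakly (0.155 to 0.265). The labels do not state a pairing, and the block was taken up from these same data. With the replicate number as a block 8 hnRNP genes fell (24.2% of the members tested, against 11.4% of all genes tested) and no SR gene did. None of the members rose with the block, against 9.59% of all genes tested, and 21% of all genes tested changed in either direction with it. These 8 were HNRNPU, HNRNPH1, HNRNPA2B1, HNRNPM, HNRNPA1, HNRNPR, HNRNPD and HNRNPA3. DESeq2 called 7 that fell, all among these 8, with HNRNPD not called. Over all genes DESeq2 called 1368 that fell and 1090 that rose, where edgeR without the block called 1181 and 1011. At an unadjusted p under 0.05, 14 members were lower (11 hnRNP and 3 SR genes), against 15.5% of all genes tested, and 0 were higher, against 14.5%.

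HNRNPH1 had 1293, 1272 and 1345 CPM with siControl and 994, 801 and 1085 CPM with siDAB2IP. The groups did not overlap, and the log2 fold change was -0.44 (SE 0.13; adjusted p = 0.0535 in edgeR, 0.0217 with the block). Without siDAB2IP 3 HNRNPH1 passed as well (log2 fold change -0.54, adjusted p = 0.00794, edgeR). On leaving out any other library HNRNPH1 did not pass (adjusted p 0.105 to 0.147, edgeR). Without siDAB2IP 2, its lowest library, the log2 fold change was -0.33. HNRNPA2B1, which binds UAG motifs and sorts microRNAs and is among the genes the study puts forward, had 844, 873 and 910 CPM with siControl and 723, 700 and 629 CPM with siDAB2IP. Here too every siDAB2IP library was below every siControl library, with a log2 fold change of -0.36 (SE 0.11; 95% CI -0.60 to -0.11; adjusted p = 0.0569 in edgeR, 0.0395 with the block). CBX3, which overlaps HNRNPA2B1 on the opposite strand, held counts equal to 21.7% of those of HNRNPA2B1, and its own log2 fold change was -0.11 (adjusted p = 0.502, edgeR).

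HNRNPA1 had 969, 857 and 764 CPM with siControl and 732, 684 and 522 CPM with siDAB2IP, so that the groups did not overlap although the libraries of each group differed widely. Its log2 fold change was -0.42 (SE 0.15; adjusted p = 0.0915 in edgeR, 0.0174 with the block). HNRNPA3, its paralog, varied little within groups, at 325, 325 and 329 CPM with siControl and 274, 264 and 268 CPM with siDAB2IP (log2 fold change -0.28, SE 0.09, adjusted p = 0.0703 in edgeR, 0.0492 with the block). Genes named as their numbered copies and not annotated as protein-coding held counts equal to 0.666% of those of HNRNPA1 and 0.783% of those of HNRNPA3. These copies were picked by name, without comparing sequences, and leave out HNRNPA1L2 and HNRNPA1P48. As the treatment of multi-mapped reads is not given, the counts set no limit on shared reads.

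HNRNPM, which binds GU-rich RNA and is known for its part in the splicing of CD44, had 245, 222 and 221 CPM with siControl and 193, 185 and 140 CPM with siDAB2IP (log2 fold change -0.41, SE 0.13, adjusted p = 0.0619 in edgeR, 0.0204 with the block). HNRNPR, a relative of the SYNCRIP protein, had 159, 155 and 153 CPM with siControl and 128, 131 and 86.5 CPM with siDAB2IP (log2 fold change -0.44, SE 0.15, adjusted p = 0.0768 in edgeR, 0.0279 with the block). In both genes siDAB2IP 3 was the lowest library, and the groups did not overlap. Without siDAB2IP 3 the log2 fold changes of HNRNPM, HNRNPR and HNRNPA1 were -0.28, -0.27 and -0.29. HNRNPD (AUF1), which binds AU-rich elements and promotes the decay of short-lived RNAs, had 297, 271 and 257 CPM with siControl and 244, 215 and 211 CPM with siDAB2IP (log2 fold change -0.30, SE 0.11, adjusted p = 0.0886 in edgeR, 0.0371 with the block). Its relative HNRNPDL did not show the same separation, with 407, 403 and 413 CPM against 416, 338 and 400 CPM.

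HNRNPC, which binds uridine tracts and shields them from the splicing machinery, had 447, 472 and 431 CPM with siControl and 421, 432 and 324 CPM with siDAB2IP. The groups overlapped, and the log2 fold change was -0.20 (SE 0.13; 95% CI -0.48 to 0.09; adjusted p = 0.334, edgeR). HNRNPK, a poly(C)-binding protein, had 580, 573 and 519 CPM against 510, 488 and 362 CPM, and the groups did not overlap (adjusted p = 0.188, edgeR). HNRNPF overlapped between the groups (237, 245 and 241 CPM against 222, 253 and 192 CPM). HNRNPA1P48 had the lowest log2 fold change of all members, -0.86 (SE 0.31; adjusted p = 0.0937, edgeR), at 3.20 ± 0.242 CPM with siControl and 1.76 ± 0.673 CPM with siDAB2IP (SD, n = 3). For this gene and for HNRNPA1L2 the values are uncertain because of their parent gene. The remaining hnRNP genes tested (HNRNPA0, HNRNPAB, HNRNPH2, HNRNPH3, HNRNPL, HNRNPLL, HNRNPUL1 and HNRNPUL2) had log2 fold changes between -0.31 and -0.17, and none passed in edgeR with or without the block. Counts of overlapping genes came to 41.0% of those of HNRNPAB (PHYKPL) and 76.3% of those of HNRNPUL1 (TGFB1), and whether reads were counted by strand is not stated. The log2 fold change of PHYKPL was 0.02 (adjusted p = 0.919, edgeR), and that of TGFB1 was -0.31 (adjusted p = 0.0535, edgeR), farther from 0 than the -0.20 of HNRNPUL1. The part of TGFB1 reads in the value of HNRNPUL1 was not tested.

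**Figure D2:**
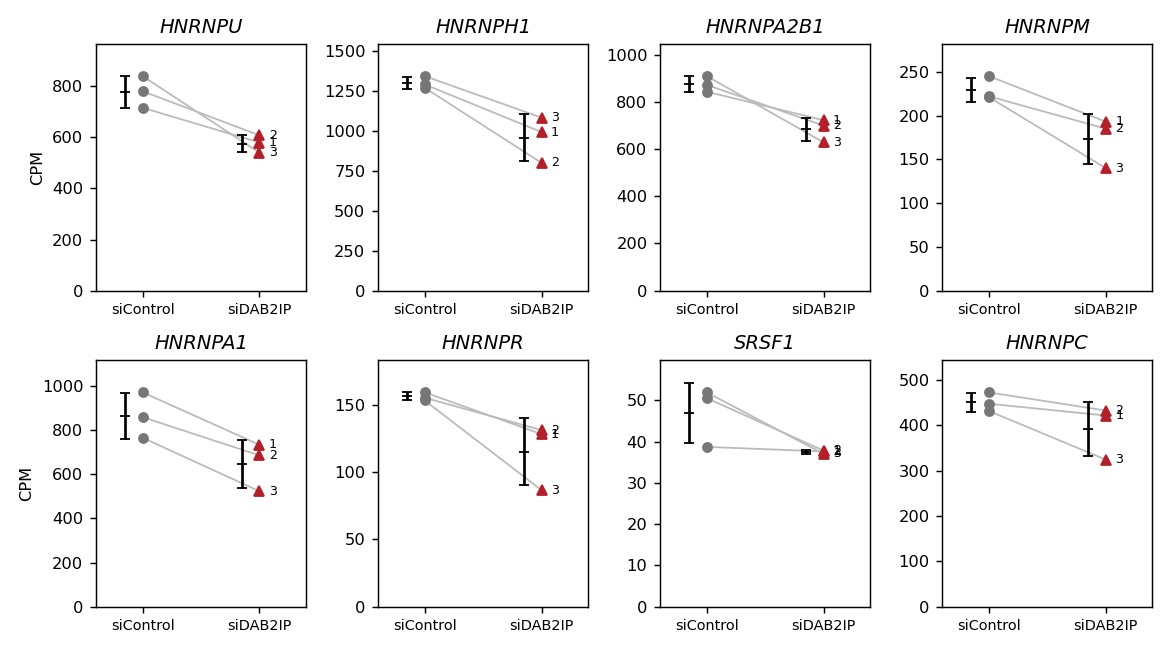
TMM-normalized CPM of 8 members in each library, with lines joining libraries of the same replicate number and black bars for the mean and SD of each group. The groups do not overlap for HNRNPU, HNRNPA2B1 and SRSF1 and overlap for HNRNPC.

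Among the SR genes, SRSF1, which binds purine-rich exonic enhancers and also acts in translation and decay, had 38.7, 50.5 and 51.9 CPM with siControl and 37.6, 37.8 and 37.0 CPM with siDAB2IP. All siDAB2IP libraries were below all siControl libraries, but siControl 1 lay close to them, and the log2 ratio within replicate numbers was -0.04, -0.42 and -0.49. The log2 fold change was -0.33 (SE 0.12; 95% CI -0.61 to -0.05; adjusted p = 0.105 in edgeR, 0.0724 with the block). Without siControl 1 it was -0.47 and passed (adjusted p = 0.0343, edgeR). On leaving out any other library SRSF1 did not pass. The log2 fold change was -0.29 without siControl 2 (adjusted p = 0.304, edgeR) and -0.27 without siControl 3 (adjusted p = 0.273, edgeR).

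SRSF2, whose mutations are known from myeloid disease, had 159, 183 and 176 CPM with siControl and 150, 144 and 152 CPM with siDAB2IP (log2 fold change -0.22, adjusted p = 0.158, edgeR). SRSF10, which represses splicing when dephosphorylated, had 134, 144 and 135 CPM against 120, 117 and 122 CPM (log2 fold change -0.20, adjusted p = 0.159, edgeR). Both groups of values stood apart without passing. SRSF3 (197, 204 and 193 CPM against 186, 173 and 152 CPM) and SRSF7 (184, 207 and 179 CPM against 161, 173 and 163 CPM), which connect splicing with RNA export, also did not overlap, as did not SRSF8 (45.8, 45.9 and 46.4 CPM against 34.8, 44.3 and 40.6 CPM). In SRSF9 the groups overlapped, and siDAB2IP 3 was far below the others at 31.5 CPM, with 47.6 and 56.2 CPM in siDAB2IP 1 and 2. Counts of overlapping genes came to 33.6% of those of SRSF9 (GATC), 16.3% of those of SRSF2 (MFSD11) and 4.19% of those of SRSF1 (AC015813.5), and the log2 fold changes of these genes were -0.24, 0.09 and -0.36 (adjusted p = 0.287, 0.625 and 0.499, edgeR).

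SRSF5 and SRSF6 behaved differently from HNRNPM and HNRNPR in siDAB2IP 3. SRSF5 had 498, 533 and 492 CPM with siControl and 439, 384 and 538 CPM with siDAB2IP, and SRSF6 had 362, 382 and 408 CPM against 334, 299 and 442 CPM. In both genes siDAB2IP 3 was above all siControl libraries and the other siDAB2IP libraries were below all of them. SRSF11 overlapped as well (345, 354 and 369 CPM against 345, 292 and 366 CPM). SRSF4 was the one tested member with a log2 fold change above 0, at 109, 104 and 96.5 CPM against 109, 107 and 98.9 CPM (log2 fold change 0.03; 95% CI -0.18 to 0.24; adjusted p = 0.87, edgeR).

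**Figure D3:**
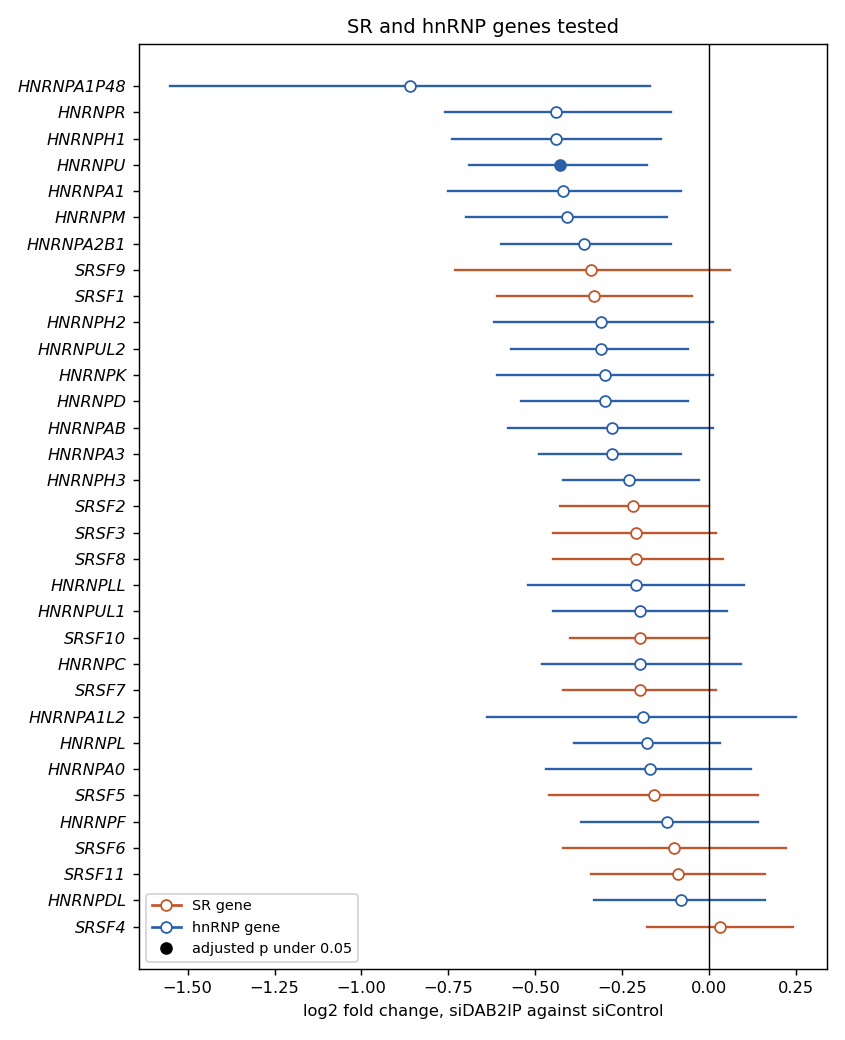
Log2 fold change of siDAB2IP against siControl for the 33 tested members, with lines for the 95% CI from edgeR's quasi-likelihood fit and a filled point where the adjusted p was under 0.05. HNRNPU is the filled point, at -0.43, and SRSF4 is the one member above 0.

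Across the tested members, 32 of 33 log2 fold changes were below 0 (97%), against 48.9% of all genes tested. The median was -0.22 over all members, -0.20 over the SR genes and -0.29 over the hnRNP genes, and 0.01 over all genes tested. Every siDAB2IP library was below every siControl library for 22 of 33 members (66.7%; 6 of 11 SR and 16 of 22 hnRNP genes), against 18.3% of all genes tested. No member was separated in the other direction, where 17.6% of all genes tested were, and 35.9% of all genes tested were separated in either direction. Within replicate numbers, 27 members (81.8%) were lower with siDAB2IP in all 3 pairs, against 28.3% of all genes tested. These are counts of genes measured in the same 6 libraries, and no test was made over the list. Leaving out 1 library at a time, the member median stayed between -0.28 and -0.21, with 30 to 33 members below 0.

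**Figure D4:**
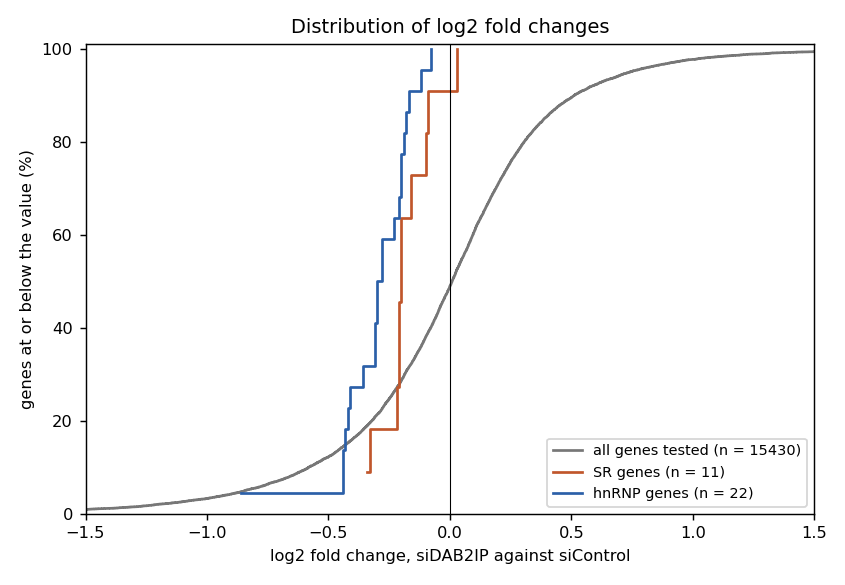
Cumulative distribution of log2 fold changes (x axis) as the percentage of genes at or below each value (y axis), for the SR genes, the hnRNP genes and the 15430 genes tested. Both families lie to the left of all genes, with medians of -0.20 and -0.29 against 0.01.

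Added up, the SR genes had 2131, 2266 and 2201 CPM with siControl and 1964, 1827 and 2144 CPM with siDAB2IP. The hnRNP genes had 7584, 7467 and 7427 CPM with siControl and 6355, 6039 and 5544 CPM with siDAB2IP. The hnRNP sum was lower in every siDAB2IP library than in every siControl library, whereas the SR sum of siDAB2IP 3 lay between those of siControl 1 and 3. Together the members took 0.953%, 0.957% and 0.956% of counts with siControl and 0.833%, 0.785% and 0.795% with siDAB2IP. In bulk RNA, fewer cells that express a gene and less of its RNA per cell cannot be told apart.

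Cell cycle markers moved with the same comparison. Of 24 such genes, 18 fell (75%, against 7.65% of all genes tested) and none rose, with MCM7, a subunit of the replicative helicase, at 208 ± 9.08 CPM with siControl and 154 ± 4.05 CPM with siDAB2IP (log2 fold change -0.43, SE 0.09, adjusted p = 0.0146, edgeR). TOP2A and MKI67, both high in dividing cells, had 241 ± 36.5 and 232 ± 63.3 CPM with siControl and 89.7 ± 50.3 and 84.7 ± 55.3 CPM with siDAB2IP (SD, n = 3). The count of 18 was 7 without siControl 1, 2 without siControl 2, 3 without siControl 3 and 5 without siDAB2IP 1, and 22 and 21 without siDAB2IP 2 and 3. All 24 were above 0 counts, and their summed level ran from 1440 to 1848 CPM with siControl and from 509 to 1118 CPM with siDAB2IP. The median deviation of these markers from the siControl mean, on the log2 scale, was -0.94, -0.47 and -1.94 in siDAB2IP 1, 2 and 3. For the hnRNP genes it was -0.20, -0.25 and -0.43, and for the SR genes -0.20, -0.23 and -0.18. The lowest library was siDAB2IP 3 for the markers and the hnRNP genes, but not for the SR genes. Between siDAB2IP 1 and 2 the order was opposite, with siDAB2IP 1 lower for the markers and siDAB2IP 2 lower for the hnRNP genes. In siControl 1, 2 and 3 the markers had medians of -0.22, 0.02 and 0.18. The hnRNP genes had 0.01, -0.00 and -0.02 there. Proliferation of MCF10A cells was higher after DAB2IP knockdown in the study's MTS assay, at 24 and 48 hours after seeding. That assay and the RNA of the markers are different measures. Cells for the assay were seeded 24 hours after transfection, and the RNA was taken 48 hours after transfection. The part of cell division in the members' values was not tested.

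**Figure D5:**
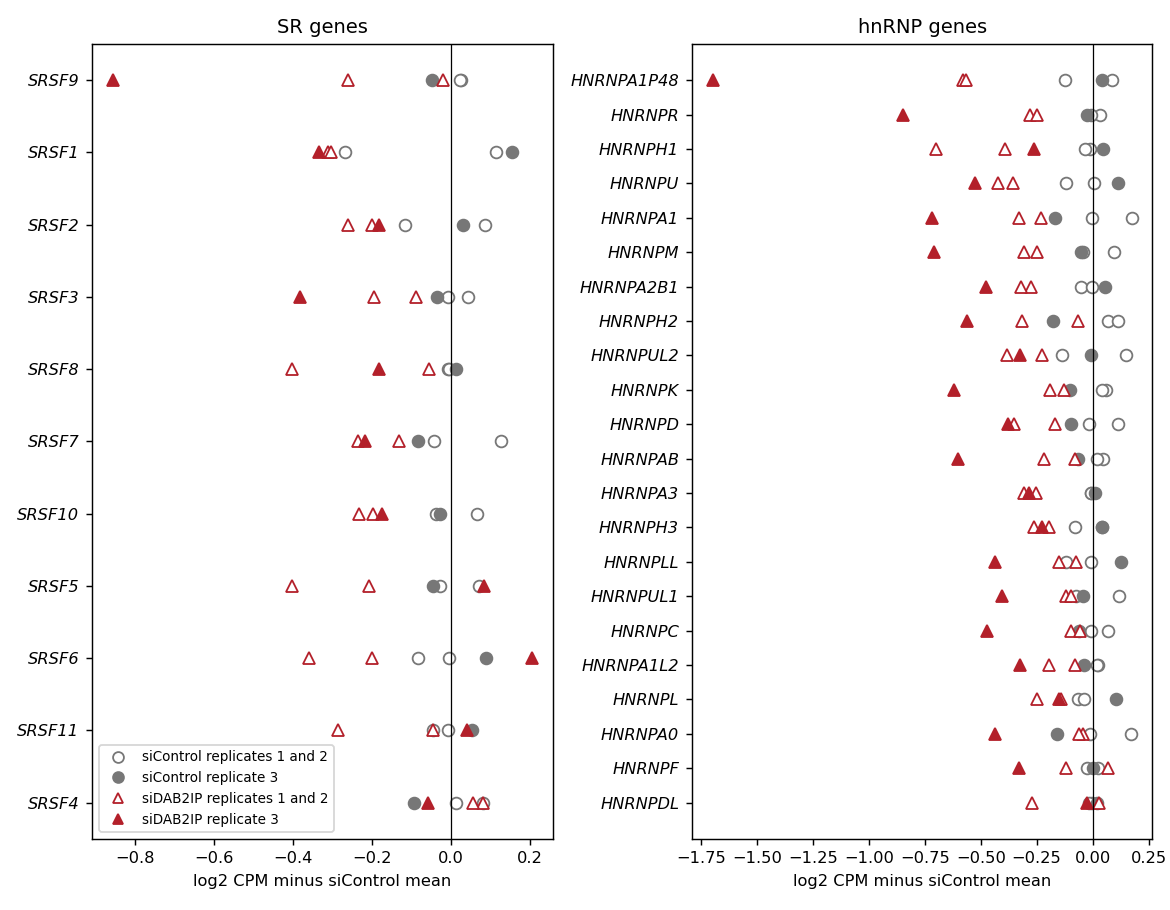
Log2 CPM of each tested SR gene (left) and hnRNP gene (right) in each library, minus the mean of the siControl libraries, with circles for siControl, triangles for siDAB2IP and filled symbols for replicate 3. The filled triangles lie above the siControl mean for SRSF5 and SRSF6 and farthest below it for many hnRNP genes, with a median of -0.43 over the hnRNP and -0.18 over the SR genes.

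Other genes of the splicing pathway were counted by their roles. Of 14 kinases, phosphatases and importers that act on SR proteins, none passed in edgeR, 5 were lower and 0 higher at an unadjusted p under 0.05 (15.5% and 14.5% of all genes tested), and DESeq2 called 0. With the block SRPK2, a kinase of SR proteins, and PPP1CA, a phosphatase subunit, fell (14.3%, with 11.4% over all genes tested), and both are named here after their values were seen. Both overlap another tested gene. Over the list the median was -0.03 on the log2 scale. Of 25 SR-related and exon junction factors, 1 fell (4%, against 7.65% of all genes tested), BCLAF1, an SR-related transcription and splicing factor (log2 fold change -0.32, adjusted p = 0.0484, edgeR), and the list median was -0.19. BCLAF1 was not called without siControl 2, siControl 3, siDAB2IP 1 or siDAB2IP 2, with scaling by library size only, or in limma, and 4 genes of the list fell without siDAB2IP 3.

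Of 44 other regulators of exon choice tested, 7 fell (15.9%, against 7.65% of all genes tested) and 1 rose (2.27%, against 6.55%), with a median of -0.16. PCBP3, a poly(C)-binding protein, had the smallest p among those that fell (log2 fold change -1.21, adjusted p = 0.0132, edgeR), followed by KHDRBS1, the Sam68 protein (-0.53, adjusted p = 0.0152), and KHSRP, which promotes decay of AU-rich RNAs (-0.50, adjusted p = 0.0234). PCBP4 rose (log2 fold change 0.92, adjusted p = 0.00711, edgeR), from 18.7 to 35.3 CPM. The number that fell was 2 without siControl 1, 0 without siControl 2, 2 without siControl 3, 3 without siDAB2IP 1 and 4 without siDAB2IP 2. PCBP3 and PCBP4 overlap other tested genes.

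Of 77 core spliceosome genes, 9 fell (11.7%, against 7.65% of all genes tested) and none rose, with a median of -0.09. With the block 10 fell (13%, against 11.4%), so that the share was near that of all genes. SF3A3 (log2 fold change -0.61, adjusted p = 0.00339, edgeR) and SF3A1 (-0.52, adjusted p = 0.0138) encode parts of the same U2 subcomplex, and SART1 (-0.64, adjusted p = 0.0132) joins the tri-snRNP to the spliceosome. SF3A1 overlaps another tested gene. The number that fell was 4, 3 and 4 without siControl 1, 2 and 3 and 3 without siDAB2IP 1. Of 10 nonsense-mediated decay factors, SMG1, the kinase that phosphorylates UPF1, rose (146 to 188 CPM, log2 fold change 0.36, adjusted p = 0.0398, edgeR; 10%, with 6.55% over all genes tested) and none fell. That call was lost on leaving out any library other than siDAB2IP 3.

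In GENCODE release 29, all 11 tested SR genes (100%) and 13 of 22 tested hnRNP genes (59.1%) have at least 1 transcript annotated as a target of nonsense-mediated decay, against 42.9% of the 12832 tested protein-coding genes. Transcripts with a retained intron are annotated for 8 SR genes (72.7%) and 14 hnRNP genes (63.6%), against 57.7%. The counts analyzed here add all transcripts of a gene together, so they do not separate productive from decay-targeted RNA of these members.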

How the data were processed

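RNA-Seq data of 6 MCF10A libraries, 3 siControl and 3 siDAB2IP, were used. Per the labels, RNA was isolated 48 hours after transfection and libraries were made and sequenced by Novogene. The submitters' processing notes name STAR 2.6.1d, featureCounts 1.5.0-p3, DESeq2 1.20.0 and edgeR 3.24.3 and the build hg38, without stating the role of each. The authors deposited raw counts per gene and library, which hold whole numbers, and a table of FPKM values, in which counts are divided by gene length and library total. Whether reads were counted by strand and how multi-mapped reads were treated is not given in the sources used here. Columns of per-sample values not used numbered 0. All 39 members had the same position in GENCODE release 29 (GRCh38).

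The count table was tested with edgeR 4.0.16 under R 4.3.3 (filterByExpr with the groups given, scaling by TMM, glmQLFit and glmQLFTest, Benjamini-Hochberg adjustment over the 15430 genes tested), and an adjusted p under 0.05 was called. Standard errors came from the F statistic, and 95% CIs from its degrees of freedom. The fit was tested on simulated counts of independent libraries, with log2 changes of 0.5 and 1. These are larger than the median change of the members, so the simulation does not show whether changes of that size are found. Per-library medians used log2(CPM + 0.5). The biological coefficient of variation common to all genes was 14.8%, and 3 libraries a group limit the precision. Alternatives were DESeq2 1.42.0, other scalings, filters and thresholds, limma 3.58.1 on log2(FPKM + 1) or log2(FPKM + 0.1), the replicate number as a block and leaving out each library.

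The labels share replicate numbers between groups but do not state what a number stands for. Deviations from the group means correlated at 0.265, 0.155 and 0.255 between libraries of the same number and at -0.278 to 0.021 between others. On this basis libraries of 1 number were treated as a pair in the fit with the block and in the comparisons within replicate numbers. The main edgeR test did not use the pairs.

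The members and gene lists were chosen with earlier results of these data known. Genes were named by a rule: DAB2IP, all members, the 3 called genes with the smallest p in each direction in each other list, and up to 3 marker genes by mean CPM. Genes named beyond it were chosen after their values were seen. No protein sequences were used here.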

Additional observations from a re-analysis of the deposited data

How the results depend on the processing

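Of the members' log2 fold changes under settings other than leaving out a library, 302 kept direction and call, 27 passed in addition and 1, HNRNPU in limma without a filter, no longer passed. On leaving out 1 library, 189 kept both, 2 passed in addition, 4 no longer passed and 3 reversed: HNRNPDL (0.00, over all omissions -0.14 to 0.00) and SRSF6 (0.02, over all omissions -0.28 to 0.02) without siDAB2IP 2, and SRSF4 (-0.03, over all omissions -0.03 to 0.07) without siControl 3. The cause was not tested.

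The number of members that fell, 1 in edgeR and hnRNP genes alone, was 8 with the replicate block, 7 in DESeq2, 7 without a filter, 3 with at least 10 counts in every library, 3 among protein-coding genes only, 3 in limma on log2(FPKM + 1) and 3 on log2(FPKM + 0.1), 0 in limma without a filter and 0 at an adjusted p under 0.01. Leaving out 1 library gave 0 to 2 members, 0 to 2 hnRNP genes and 0 to 1 SR genes, and 264 to 1172 genes that rose and 459 to 1352 that fell. All genes that rose and fell numbered 1011 and 1181 in edgeR, 1479 and 1754 with the block, 1090 and 1368 in DESeq2 and 1245 and 1692 without a filter. With at least 10 counts in every library they numbered 914 and 1259, and among protein-coding genes only 1008 and 1193. In limma they numbered 783 and 928 on log2(FPKM + 1), 776 and 885 on log2(FPKM + 0.1), and 176 and 202 without a filter. At an adjusted p under 0.01 they numbered 254 and 368. The block moved the log2 fold change of no member across 0.

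SR kinases that fell numbered 2 with the block and 0 to 2 on leaving out 1 library. SR-related factors that fell numbered 3 with the block, 0 with library size only, 0 in limma in all 3 forms and at an adjusted p under 0.01, and 0 to 4 on leaving out 1 library. Other regulators that rose numbered 3 with the block (PCBP4, RBM3 and RBM47), 2 with library size only and 0 in limma without a filter, with 1 to 2 on leaving out 1 library, and those that fell numbered 0 in limma without a filter, 0 at an adjusted p under 0.01 and 0 to 6 on leaving out 1 library. Core spliceosome genes that rose numbered 2 with the block (LSM2 and LSM4) and 0 to 2 on leaving out 1 library, and those that fell numbered 1 in limma without a filter, 1 at an adjusted p under 0.01 and 3 to 8 on leaving out 1 library. Of the decay factors, UPF1 fell (1 gene) in DESeq2, without a filter, with at least 10 counts, among protein-coding genes and with the block, and SMG1 was not called (0 genes) in limma in all 3 forms or at an adjusted p under 0.01, with 0 to 1 genes that rose on leaving out 1 library. Cell cycle markers that fell numbered 10 in DESeq2, 8 in limma on log2(FPKM + 1), 8 on log2(FPKM + 0.1), 1 in limma without a filter, 1 at an adjusted p under 0.01 and 2 to 22 on leaving out 1 library. Epithelial markers that fell numbered 0 in limma without a filter and 3 to 4 on leaving out 1 library. Of the markers of other cell types, COL1A1 was not called (0 genes) in limma without a filter or at an adjusted p under 0.01, PECAM1 fell (1 gene) without a filter and with the block, and 0 to 1 rose and 0 to 1 fell on leaving out 1 library.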
